A study of Aspergillus niger with 6 samples.

Results

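A group of 141 genes of the filamentous fungus Aspergillus niger had a value of at least 5 FPKM in the library grown with the lower air supply. In every library grown with more air these genes stood below 1 FPKM or were unlisted. Fewer than 10 fragments lay behind the value of 35 of them. FPKM counts fragments per length of transcript and per total of mapped fragments. They were chosen from 10257 loci listed in either of the 2 deposited tables. The choice required at least 5 FPKM in the low-air library, and either a level below 1 FPKM in all 5 libraries with more air or no entry in the time course table together with 0 at 24 h. Of the 141 genes, 87 were listed in the time course table and 54 were absent from it. They are called low-air genes here, and the name refers to the levels that chose them: all 87 listed genes had at least 1 fragment somewhere in the libraries with more air, so they were low there and not absent. Since all 6 libraries entered the choice, the levels below are a description and carry no test.

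The strain was H915-1, grown as pellets in a citrate fermentation. The low-air group was sampled at 48 h with 1.5 vvm, and the other groups at 6, 12, 24, 36 and 48 h with 3 vvm, where vvm counts volumes of air supplied per culture volume and minute. Each group had 1 library, so no difference between libraries has a replicate check. The libraries held between 5062817 (6 h) and 6708035 (1.5 vvm) recovered fragments. They were made from total RNA of whole pellets, so expression in more of the hyphae and more RNA per hypha cannot be told apart. Per the labels' protocols an Illumina TruSeq RNA kit was used, whose standard version is not stranded, and reads from a gene and from an antisense transcript cannot be told apart either.

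Aspergillus niger is the mould used to make citric acid, in a strongly aerated culture in which oxygen supply is a main process variable. Filamentous fungi carry many genes that are silent in most growth conditions, and among them those for secondary metabolites often lie side by side in clusters, frequently towards chromosome ends. The files do not pair gene identifiers with names or functions, and 0 of the identifiers matched the 14404 genes of the table given for assembly ASM285v2. The low-air genes are therefore given by contig and position, on the authors' own contigs.

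The same choice was made for each library in turn, to see how often 1 library alone held such genes. At 1.5 vvm there were 141 genes, with a median of 43 fragments, which is 1.37% of all loci. With 3 vvm the 6 h library held 1 such gene, with 45.0 FPKM and 227 fragments, and the 36 h library held 3, each with 2 fragments. The libraries from 12, 24 and 48 h held none. These counts are not on equal terms. At 1.5 vvm 97.5% of all loci reached 1 FPKM, so few loci were open to a library at 3 vvm. Each library at 3 vvm was also set against 4 others with the same air supply, and the 1.5 vvm library against none. The low-air library was also the deepest, and 106 of its 141 genes had at least 10 fragments. Signal was wider in it over all loci. With unlisted genes counted as 0, it had 30 loci at 0 fragments, against 678 to 805 in the libraries at 3 vvm. Why so few loci were at 0 was not tested.

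The low-air genes were the upper part of a larger set. A total of 1063 genes listed with the 1.5 vvm library were below 1 FPKM, or unlisted, in all libraries at 3 vvm. Their median was 1.79 FPKM and 11 fragments at 1.5 vvm, and 82.6% of them reached 1 FPKM there. The 141 low-air genes made up 13.3% of this quiet set, 64 of them reached 10 FPKM, and 14 reached 20 FPKM. The other 922 quiet genes had a median of 1.59 FPKM at 1.5 vvm. Together they held 0.208% of all fragments at 1.5 vvm, against 0.0235% at 48 h and 3 vvm, and all 141 low-air genes held 0.120%, against 0.00297%. Both sets were limited to genes that were listed with the 1.5 vvm library and low at 3 vvm. For the low-air genes the direction of the difference follows from that choice. For the other 922 the choice favours the direction but does not set it, since levels below 1 FPKM at 1.5 vvm were allowed. Of these 922 genes, 79.9% reached 1 FPKM there. The 442 genes listed in both tables and below 0.5 FPKM in all libraries at 3 vvm had a median of 1.57 FPKM at 1.5 vvm. The cause of these levels was not tested.

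**Figure D1:**
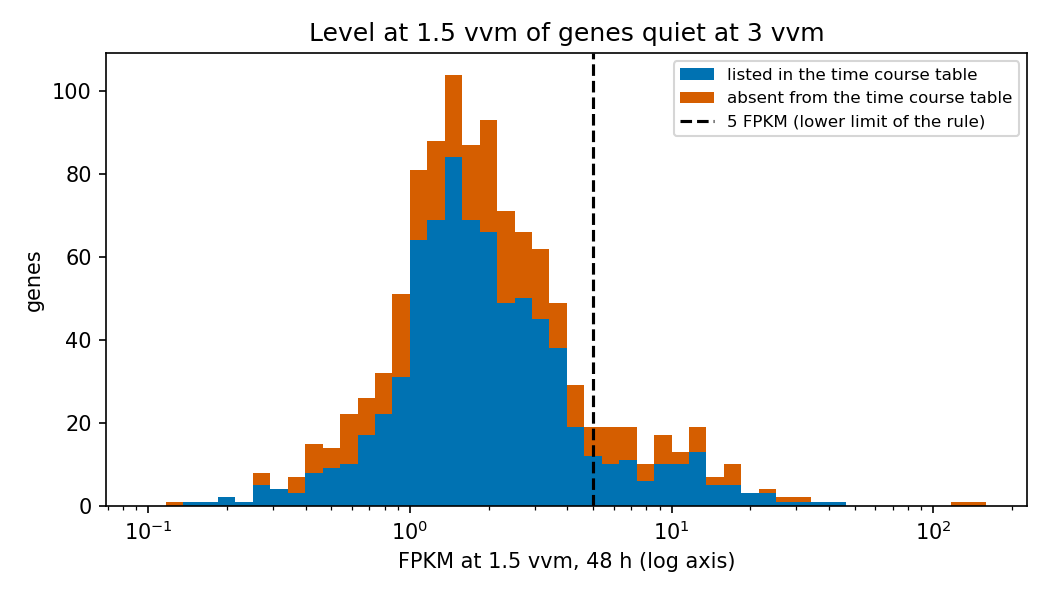
FPKM at 1.5 vvm (log axis) of the 1063 genes that were quiet at 3 vvm, as a stacked count of genes listed in the time course table and genes absent from it. Most genes lie around the median of 1.79 FPKM, and the 141 low-air genes are those right of the dashed line at 5 FPKM.

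The lower limit of 5 FPKM lay on the slope of this distribution. There were 104 quiet genes at 3 to 4 FPKM, 34 at 4 to 5, 24 at 5 to 6 and 22 at 6 to 7. Just inside were genes at 5.01 FPKM (unitig_4, 275181 to 277034, 3 fragments) and 5.02 FPKM (unitig_4, 1695735 to 1698401, 75 fragments). Just outside were genes at 4.98 FPKM (unitig_0, 226058 to 226387, 3 fragments) and 4.95 FPKM (unitig_3, 3071831 to 3072524, 13 fragments). At the ceiling of 1 FPKM, the 2 nearest genes inside reached 0.995 (unitig_4, 1260657 to 1261511) and 0.990 FPKM (unitig_0, 3317943 to 3318980) in their highest library at 3 vvm. The 2 nearest outside reached 1.001 (unitig_2, 3139219 to 3140787) and 1.006 FPKM (unitig_2, 3315376 to 3316499), and they stood at 7.54 and 13.2 FPKM at 1.5 vvm.

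The 87 listed genes were the better measured part. At 1.5 vvm they lay between 5.02 and 40.8 FPKM with a median of 9.70, on 10 to 304 fragments with a median of 65. Their median at 3 vvm was 0.207, 0.165, 0.141, 0.234 and 0.257 FPKM in order of time from 6 to 48 h. Together they held 7230 fragments at 1.5 vvm, against 142, 126, 131, 154 and 181 at 3 vvm in the same order. As a share of all fragments that was 0.108% at 1.5 vvm, against 0.00280%, 0.00242%, 0.00247%, 0.00287% and 0.00297% at 3 vvm. The choice kept only genes below 1 FPKM at every time, which limits how far this sum could vary, and nothing is read from its narrow range. Of the 87 genes, 27 had at most 1 fragment in every library at 3 vvm and 48 had at most 2. At 48 h, 19 had no fragment at 3 vvm.

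**Figure D2:**
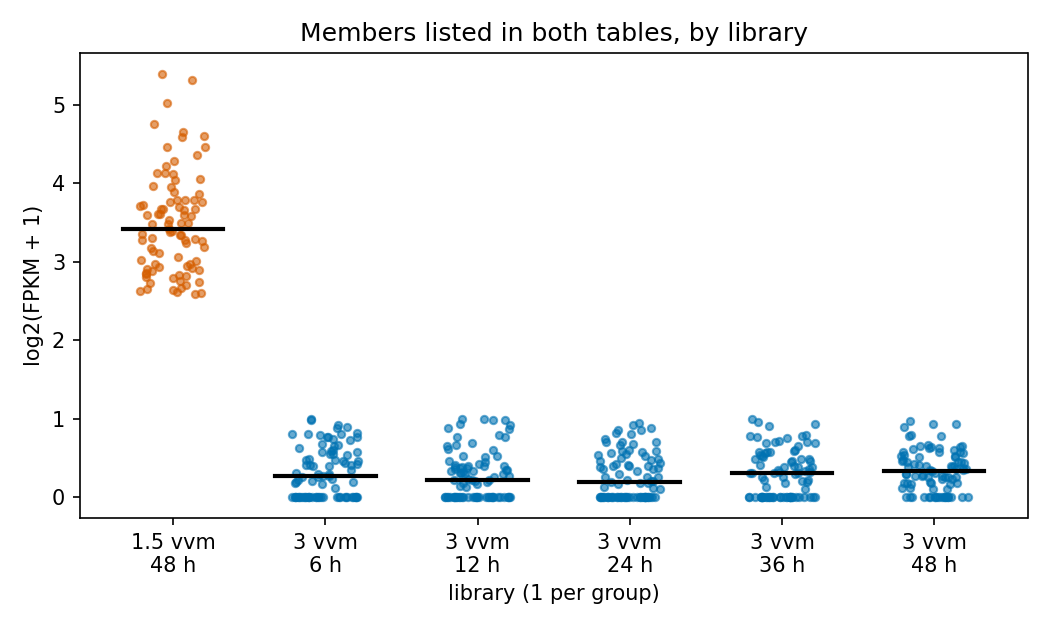
Level of the 87 low-air genes listed in both tables, as log2(FPKM + 1), in the library at 1.5 vvm and in the 5 libraries at 3 vvm, with 1 point per gene and a black line at the median. The separation of the first column from the others follows from how the genes were chosen, and the medians at 3 vvm lie between 0.141 and 0.257 FPKM.

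On the log2(FPKM + 1) scale, the listed genes differed between 1.5 and 3 vvm at 48 h by 1.86 to 4.89, with a median of 3.01. All 141 low-air genes were at least 2-fold higher, where 23.9% of all 10025 genes of at least 1 FPKM in either library were, and 139 were at least 4-fold higher, where 6.57% of all genes were. Both counts follow from the choice and nothing is read from them. Counting error left a narrower set. By the exact 95% counting interval of the fragment ratio relative to depth, 84 genes (71 listed, 13 unlisted) were at least 4-fold higher at the lower limit, where 4.34% of the same 10025 genes were. This count, too, rests on values that the choice used. For 27 genes, all of them unlisted, that limit was below 1. The protocols name no molecular identifiers, so fragments need not be separate molecules and the intervals hold for counting error alone.

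The listed gene with the most fragments was evm.model.unitig_3.183 (unitig_3, 597021 to 598661). It was at 40.8 FPKM at 1.5 vvm (95% counting interval 36.4 to 45.7), against 0.338, 0.165, 0.314, 0.476 and 0.558 FPKM at 3 vvm in order of time. That was 304 fragments at 1.5 vvm, against 2, 1, 2, 3 and 4. All 5 libraries at 3 vvm were low. Relative to depth it was 69.1-fold higher than at 48 h and 3 vvm (26.7 to 255). It was also the highest of the listed genes in FPKM.

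The unlisted gene with the most fragments was evm.model.unitig_2.285 (unitig_2, 905325 to 907028), at 10.1 FPKM at 1.5 vvm (8.20 to 12.3) with 99 fragments. It had a recorded 0 at 24 h and, being absent from the time course table, was counted as 0 in the other libraries at 3 vvm. The lower 95% counting limit of its fragment ratio to the 48 h library at 3 vvm, relative to depth, was 24.0. Up to 3 fragments are possible behind a count of 0, and for this gene they correspond to 0.336 FPKM in that library.

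Other listed genes of high level rested on 90 to 191 fragments. The gene on unitig_1 from 319762 to 320491 was at 38.7 FPKM with 120 fragments at 1.5 vvm, against 0 fragments at 6, 12 and 24 h and 1 each at 36 and 48 h. The gene on unitig_2 from 1192438 to 1193100 was at 31.5 FPKM with 97 fragments at 1.5 vvm, against 1 fragment at 6, 12 and 48 h and 0 at 24 and 36 h. The gene on unitig_5 from 2363816 to 2365215 was at 23.1 FPKM with 191 fragments at 1.5 vvm, and its only fragment at 3 vvm was at 48 h. These 3 genes were at 0 in at least 2 of the 5 libraries at 3 vvm. On unitig_3 the gene from 801305 to 802129 was at 26.0 FPKM with 101 fragments at 1.5 vvm, against 1, 3, 0, 2 and 1 in order of time. On unitig_2 the gene from 1037411 to 1038157 was at 24.1 FPKM with 90 fragments, against 1 fragment each at 12 and 48 h and none at the other times.

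Another 3 of the highest genes differed in how many fragments they had at 48 h and 3 vvm. The gene on unitig_0 from 1488196 to 1489048 was at 23.0 FPKM with 94 fragments at 1.5 vvm, against 2 at 6 h, 1 at 24 h and 0 at 12, 36 and 48 h. The gene on unitig_3 from 3457292 to 3458254 was at 21.0 FPKM with 125 fragments at 1.5 vvm, against 2 at 6 h, 1 at 24 h and 0 at the other times. The gene on unitig_3 from 2681953 to 2683089 was at 21.0 FPKM with 173 fragments at 1.5 vvm, against 1, 4, 1, 3 and 8 fragments in order of time. The last was the highest of all low-air genes at 48 h and 3 vvm, at 0.963 FPKM, and was 19.7-fold higher at 1.5 vvm relative to depth (9.76 to 46.3).

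Among the genes named for their many fragments at 1.5 vvm, 1 also had more than 8 fragments in a library at 3 vvm. The gene on unitig_3 from 2112910 to 2120199, with the longest span of the low-air genes (7290 bases), had 218 fragments at 1.5 vvm and 9.36 FPKM. At 3 vvm it had 4, 2, 17, 17 and 20 fragments in order of time, so it was lowest at the first times and its difference at 48 h was 9.91-fold (6.26 to 16.6). The gene on unitig_0 from 5923282 to 5925966 had 231 fragments at 1.5 vvm and 13.6 FPKM, against 5, 8, 1, 7 and 5 fragments at 3 vvm in order of time. The gene on unitig_6 from 1524274 to 1526240 had 164 fragments at 1.5 vvm and 12.5 FPKM, against 3, 3, 6, 7 and 3. Both had fragments in all 5 libraries at 3 vvm. The gene on unitig_1 from 3743127 to 3745064 had 162 fragments at 1.5 vvm and 11.1 FPKM, against 8, 0, 0, 1 and 0, so nearly all of its fragments at 3 vvm were at 6 h. The other 4 genes named for their fragments had 174 to 263 fragments at 1.5 vvm and at most 8 in any library at 3 vvm.

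The 54 genes absent from the time course table were shorter and rested on fewer fragments, which the choice favours. A listed gene had at least 1 fragment at 3 vvm and had to stay below 1 FPKM there, which keeps the shortest genes out of the listed part. The unlisted genes had no such limit. The median of the unlisted genes at 1.5 vvm was 8.73 FPKM, close to that of the listed genes, but it rested on a median of 5.5 fragments. A single fragment carried 12 of them, and 23 had at most 3 fragments. Their median span was 596 bases, against 1302 for the listed genes and 1491 for all loci, and 48.1% of them were shorter than 500 bases, against 3.45% of the listed genes and 4.29% of all loci.

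**Figure D3:**
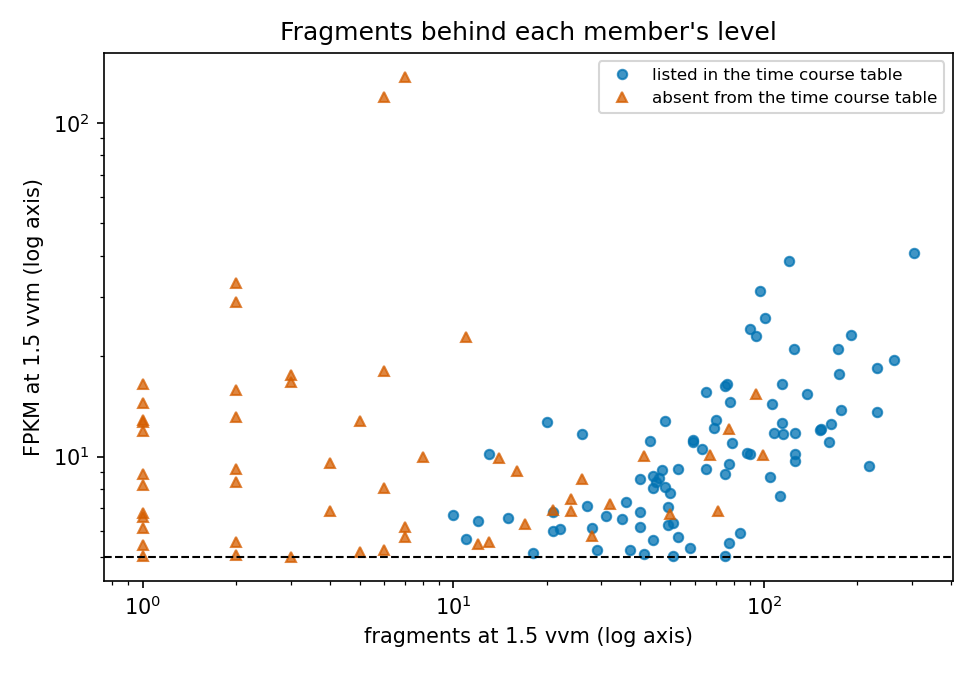
FPKM against recovered fragments at 1.5 vvm (both log axes) for the 141 low-air genes, with listed genes as circles and genes absent from the time course table as triangles, and the 5 FPKM limit as a dashed line. The 87 listed genes have 10 fragments or more, while 35 of the 54 unlisted genes have fewer than 10, including both genes above 100 FPKM. The choice keeps the shortest genes out of the listed part.

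The length that FPKM and fragments imply together shows what these levels rest on. Taking the recovered total as the number of mapped fragments, it was a median of 956 bases for listed and 67.1 bases for unlisted low-air genes, and it was below 100 bases for 30 of the 54 unlisted genes and for 0 of the 87 listed ones. The choice sets this split, since 1 fragment at 3 vvm puts a gene of so short a length above 1 FPKM. The shortest implied length among the listed genes was 191 bases. Over all loci the implied length was below 100 bases for 220 genes. The 2 highest values among the low-air genes belonged to unlisted genes with implied lengths below 100 bases. One, on contig 1 from 991503 to 991685, was at 137 FPKM (55.2 to 283) with 7 fragments and an implied length of 7.60 bases. The other, on unitig_0 from 1199850 to 1200029, was at 120 FPKM (44.0 to 261) with 6 fragments and an implied length of 7.47 bases. The lower 95% counting limits of their fragment ratios to the 48 h library at 3 vvm were only 1.31 and 1.07.

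Further unlisted genes with an FPKM among the highest of this set had few fragments. The gene on unitig_0 from 568501 to 568683 was at 33.2 FPKM and the gene on unitig_3 from 152229 to 152655 at 29.0 FPKM, each with 2 fragments. The gene on unitig_1 from 4704679 to 4704978 was at 22.8 FPKM with 11 fragments. Short implied lengths also occurred in long spans: the gene on unitig_3 from 844882 to 846446 spans 1565 bases and was at 8.85 FPKM on 1 fragment, with an implied length of 16.8 bases.

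Of the unlisted genes, 19 had at least 10 fragments. After the gene on unitig_2 named above, these were the gene on contig 1 from 3128093 to 3129244 with 94 fragments and 15.4 FPKM and the gene on unitig_2 from 2006587 to 2007636 with 77 fragments and 12.1 FPKM. The gene on unitig_4 from 632425 to 634290 had 71 fragments and 6.85 FPKM, and the gene on contig 1 from 3145877 to 3147369 had 67 fragments and 10.1 FPKM. These 4 were named after their values were seen. All had a recorded 0 at 24 h and, being unlisted, were counted as 0 in the other libraries at 3 vvm. With 48 h at 3 vvm counted as 0, the lower 95% counting limits of their fragment ratios to that library were 22.7, 18.5, 17.1 and 16.1.

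Span bore on the choice across the whole quiet set. Of 78 quiet genes shorter than 500 bases, 37.2% were low-air genes, against 15.1% of 232 genes of 500 to 1000 bases, 11.2% of 545 genes of 1000 to 2000 bases and 7.69% of 208 longer genes. Counting only low-air genes with at least 10 fragments, the shares were 5.13%, 13.8%, 10.1% and 7.21% in the same order. The order among the shortest genes therefore depended on genes with fewer than 10 fragments.

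The low-air genes were spread over the genome. All 141 lay on the 8 long contigs (those with at least 100 listed genes), from 11 on each of unitig_5 and unitig_6 to 27 on unitig_3. As a share of the listed genes of a contig they ranged from 0.823% on unitig_0 (95% interval 0.461 to 1.35) to 2.27% on unitig_3 (1.50 to 3.28). As a share of the quiet genes of a contig they ranged from 10.3% on unitig_5 to 16.5% on contig 1.

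Few of them lay together. With at most 1 listed gene between neighbours, 7 of the 141 genes formed 3 groups, and the other 134 stood alone. The low-air genes were 1.37% of all loci. How many groups that share alone would give was not tested, so nothing is read from the number of groups. The group of 3 directly adjacent genes was on contig 1 from 529554 to 532912. Its first gene (529554 to 530438) was at 16.5 FPKM with 76 fragments at 1.5 vvm, against 3 fragments at 6 h and 0 at the later times at 3 vvm. The second (530900 to 531649) was at 11.2 FPKM with 43 fragments, against 1 fragment at 48 h and 0 before. The third (531989 to 532912) was at 12.8 FPKM with 70 fragments, against 1 fragment each at 6 and 48 h. The gene before the group was detected in all libraries, at 13.1 FPKM at 1.5 vvm and at 19.3, 2.42, 6.33, 4.11 and 5.62 FPKM at 3 vvm in order of time. The gene after it was at 3.59 FPKM at 1.5 vvm and between 1.11 and 2.93 FPKM at 3 vvm, so both flanking genes were above 1 FPKM in every library.

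**Figure D4:**
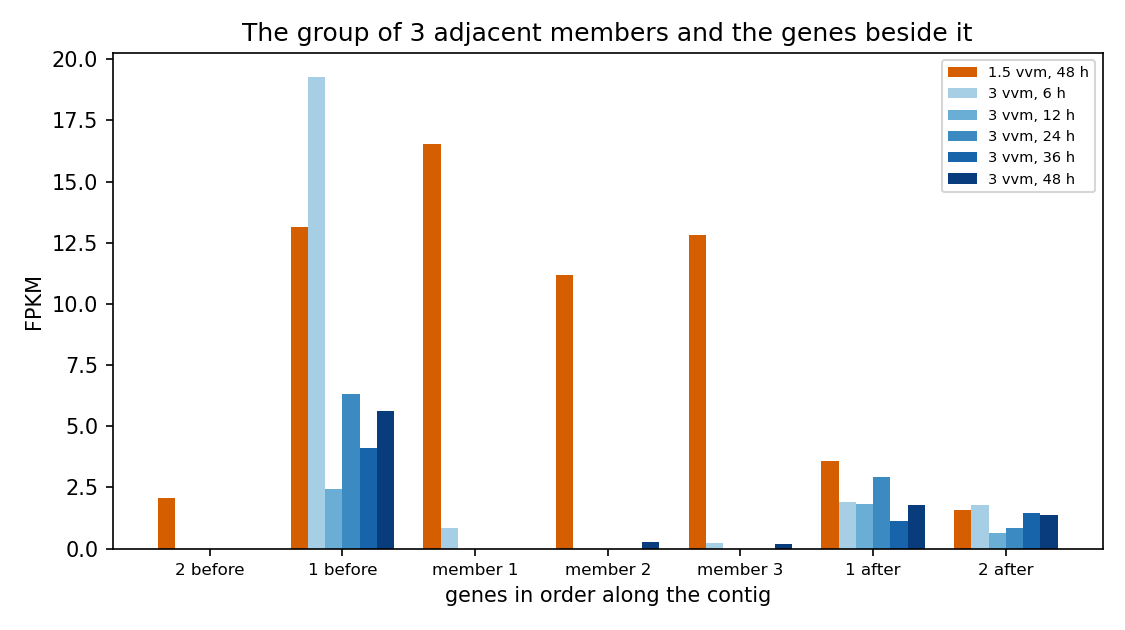
FPKM of the 3 adjacent low-air genes on contig 1 (member 1 to 3) and of the 2 listed genes on each side, in the 1.5 vvm library and in the 5 libraries at 3 vvm, 1 bar per library. The 3 genes are at 11.2 to 16.5 FPKM at 1.5 vvm and below 1 FPKM at 3 vvm, and the gene before them is highest at 6 h.

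The pair on unitig_0 from 3499136 to 3501864 was also directly adjacent. Its genes were at 12.8 and 17.6 FPKM at 1.5 vvm, with 48 and 174 fragments. At 3 vvm the first had 0, 3, 1, 1 and 2 fragments in order of time and the second had 2 at 48 h only. The next gene (3505174 to 3506764) was at 11.3 FPKM at 1.5 vvm and at 2.42, 4.53, 5.62, 1.32 and 0.872 FPKM at 3 vvm. The other pair, on contig 1 from 3069016 to 3085013, had genes at 6.74 and 10.2 FPKM at 1.5 vvm with 50 and 13 fragments, and the gene between them was at 5.52 FPKM at 1.5 vvm and at 3.53 to 6.39 FPKM at 3 vvm.

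Position near a contig end, which the choice did not use, was compared by counts alone. Within 100 kb of either end of a long contig, counted from its first base or from its last gene, lay 6 of 141 low-air genes, which is 4.26% (95% interval 1.58 to 9.03). The share was 15.1% of the 922 other quiet genes (12.8 to 17.6) and 4.75% of all 10238 loci on long contigs (4.34 to 5.18). Within 50 kb the shares were 2.13% of the low-air genes and 9.33% of the other quiet genes. Of all 10238 loci on long contigs, 215 lay within 50 kb, a share close to that of the low-air genes. The median distance to the nearer end was 865 kb for low-air genes, 724 kb for other quiet genes and 1106 kb for all loci. Adjacent genes can be expressed together, which makes these intervals narrower than they should be, and whether a contig end is a chromosome end is not known from the files.

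**Figure D5:**
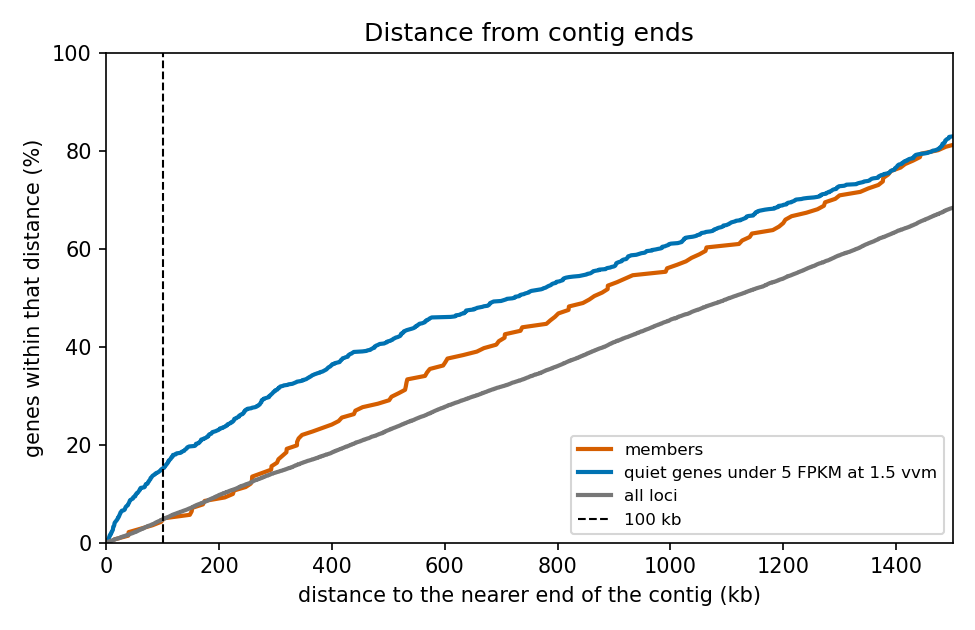
Cumulative share of genes (%) by distance to the nearer end of their long contig (kb), for the 141 low-air genes (members), the 922 other quiet genes and all loci. At the dashed line at 100 kb the curves are at 4.26%, 15.1% and 4.75%, and the curve of the low-air genes lies close to that of all loci there.

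The genes directly beside the low-air genes had a lower median level than other genes, though not all of them were low. There were 275 such genes that were not low-air genes, and their median was 8.95 FPKM at 1.5 vvm, against 4.14, 4.28, 4.86, 5.64 and 5.62 FPKM at 3 vvm in order of time. The other 9841 genes had a median of 27.9 FPKM at 1.5 vvm, against 21.2, 22.3, 24.0, 24.8 and 24.0 FPKM at 3 vvm. Of the neighbours, 62 (22.5%) were quiet at 3 vvm, against 8.74% of the others. Of 266 neighbours past the filter, 100 (37.6%) stood at least 2-fold higher at 1.5 vvm relative to 48 h and 3 vvm, against 22.4% of 9618 other genes. At least 2-fold lower were 3.76% of the neighbours and 2.83% of the others, where all genes together gave 2.81%.

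The shares differed with the level of the genes compared. Among genes of 1 to 10 FPKM in the higher of the 2 libraries, 74 of 126 neighbours (58.7%) and 45.9% of 2264 others were higher. At 10 to 50 FPKM the shares were 22.6% of 93 neighbours and 19.0% of 3698 others, and at 50 FPKM or more 10.6% of 47 and 11.5% of 3656. A directly neighbouring gene of at least 100 FPKM at 1.5 vvm within 1 kb was found for 10 of the 141 low-air genes (7.09%), against 1816 of all 10257 loci (17.7%). The median distance to the nearest listed gene was 504 bases for low-air genes and 579 bases for all loci.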

How the data were processed

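RNA of 6 libraries was sequenced, 1 per group, and each library was put in its group by the age and air supply in its labels. TopHat2 2.0.9 and Cufflinks 2.1.1 are named in the submitters' processing notes. Neither a genome build nor an annotation is given in the sources used here. FPKM was computed by the authors and deposited in 2 tables, and since the 24 h values were identical at 9930 of 9930 shared loci, the tables were merged by locus. The deposited columns whose headers read count hold a signal that the authors had scaled to 1 total per table. Dividing it by the step between low values recovered whole fragments, with a tolerance of 0.1, for at least 99.9% of values above 0. The step at 36 h was close to 1 (1.007). Of the 36 h values above 50, 18.5% were whole as deposited and 99.96% after division. A further 4 value columns matched no label and were not used.

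A gene listed in only 1 table was taken as 0 in the libraries of the other. FPKM at 1.5 and 3 vvm at 48 h come from different tables. Starts were raised by 1 so that positions count from 1. Changes are log2(FPKM + 1), which understates the change of low genes. Intervals are exact at 95% (Poisson or Clopper-Pearson), and a count of 0 allows 3 fragments. Limits of a fragment ratio take counting error in both libraries. With 1 library per group no p-value was computed, except in edgeR 4.0.16 (R 4.3.3) over all genes, run as an added alternative. The genes and comparisons were chosen with earlier results of these data known. Named genes were up to 14 with the highest FPKM at 1.5 vvm, up to 8 more with the most fragments, groups of at least 3 neighbours, and the 2 nearest each threshold on either side. The 2 identifiers printed are the listed and the unlisted gene with the most fragments. Gene lists could not be applied without gene names.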

Additional observations from a re-analysis of the deposited data

How the results depend on the processing

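The number of genes meeting the rule moved with its thresholds: 279 with a minimum of 3 FPKM and 64 with 10 FPKM at 1.5 vvm, and 90 with a ceiling of 0.5 FPKM and 240 with 2 FPKM at 3 vvm, against 141. It was 149 to 166 when 1 library at 3 vvm was left out of the rule, 117 with values rescaled to a common sum, 106 with at least 10 fragments, and 106 with the median of silent genes (1.57 FPKM) taken off at 1.5 vvm. The 117 genes and both sets of 106 were all among the 141. Rescaling set the median log2 change of all genes at 0.06 in place of 0.31. Genes at least 4-fold higher numbered 27 with a pseudocount of 5 FPKM and 84 by the lower counting limit of the fragment ratio, against 139; they numbered 133 to 141 under the 3 other settings. The share near contig ends was 2.13% at 50 kb, 8.51% at 200 kb and 3.77% with at least 10 fragments. At 200 kb it was 9.72% for all loci on long contigs and 23.1% for the other quiet genes. There were 2 to 4 groups of neighbours, and the median level was 8.12 to 9.27 FPKM. Log2 changes were followed for 26 named genes: those of highest FPKM or most fragments, the 2 identifiers and the group of 3. The genes nearest the thresholds and some others given by position were not among them. The changes left their 95% counting interval in 52 of 104 values under 4 settings (2 pseudocounts, rescaling and taking off the silent median), and their direction is set by the rule. That interval takes counting error at 1.5 vvm alone and was built with a pseudocount of 1 FPKM. Values at the 2 other pseudocounts are on another scale, so leaving the interval there does not measure counting error. In edgeR's quasi-likelihood test on recovered fragments, an alternative chosen after seeing the data, 714 of 9542 genes (7.48%) were higher at 1.5 vvm and 161 lower at a Benjamini-Hochberg adjusted p below 0.05. Its spread is the deviation of libraries from a line in log2 time, with 3 residual degrees of freedom, and its aeration term rests on 1 library. As the rule used this contrast, no count over the low-air genes is given. No paired analysis was possible because each group had 1 library. Depth limits the 35 genes with fewer than 10 fragments.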

Other observations

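Within the 5 libraries at 3 vvm alone, genes at 5 FPKM or more in 1 library and below 1 FPKM in the 4 others numbered 10, 2, 2, 5 and 3 in order of time from 6 to 48 h. Of these, 6 genes of the 6 h library and 1 gene of the 24 h library had at least 10 fragments, and no gene of the other libraries did.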
